A study of Mus musculus with 6 samples.

Results

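Prostaglandin synthesis, reception and breakdown were followed through 10 genes: Ptgs1, Ptgs2, Ptges, Ptges2, Ptges3, Ptgis, Ptger1, Ptger2, Ptger4 and Hpgd. They were chosen by name, and all 10 are among the 55494 gene rows of the deposited count table. The libraries hold poly(A) RNA of primary muscle stem cells (MuSCs) from wild-type mice, kept in culture for 2 days without (control, 3 libraries) or with (EET, 3 libraries) 11,12-EET. The sources used here do not state the dose, the control medium, the age of the mice or how the cells were isolated. They also do not say that the libraries of a group are separate animals or cultures. P-values therefore reflect only how much these libraries varied, and that variation may be technical.

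Prostaglandins and EETs share a precursor. Phospholipases free arachidonic acid from membranes, cyclooxygenases (Ptgs1 and Ptgs2, also called COX-1 and COX-2) turn it into the unstable intermediate prostaglandin H2, and cytochrome P450 epoxygenases turn it into EETs such as 11,12-EET. Terminal synthases then make the active prostanoids: the enzymes named prostaglandin E synthases (Ptges, Ptges2, Ptges3) are assigned to PGE2, and prostacyclin synthase (Ptgis) gives prostacyclin. Which of these enzymes make PGE2 in these cells was not measured. PGE2 acts through the G protein-coupled receptors EP1 to EP4, encoded by Ptger1 to Ptger4, of which EP2 and EP4 raise cAMP, and hydroxyprostaglandin dehydrogenase (Hpgd) inactivates it. In injured muscle PGE2 is known to stimulate the expansion of muscle stem cells through EP4, and Hpgd is known for lowering PGE2 in aged muscle.

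The start regions of both cyclooxygenase genes are shown because the isoenzymes carry out the same reaction but differed in level and, as counted, in whether they passed the test. Each is the plus-strand sequence from 250 bases before to 30 bases after the gene start (RefSeq, GRCm38.p6). Capitals mark matches to any of 4 motifs searched on both strands: the short form of the cAMP response element (TGACG), the full element (TGACGTCA), the E-box CACGTG and the TATA box TATAAA.
Ptgs2, chr1:150099781-150100060: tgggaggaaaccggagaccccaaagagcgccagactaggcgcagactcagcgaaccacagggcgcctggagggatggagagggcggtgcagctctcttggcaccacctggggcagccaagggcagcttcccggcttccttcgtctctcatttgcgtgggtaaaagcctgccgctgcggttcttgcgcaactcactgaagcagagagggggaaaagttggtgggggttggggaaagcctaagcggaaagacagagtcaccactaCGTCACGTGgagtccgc
Ptgs1, chr2:36230176-36230455: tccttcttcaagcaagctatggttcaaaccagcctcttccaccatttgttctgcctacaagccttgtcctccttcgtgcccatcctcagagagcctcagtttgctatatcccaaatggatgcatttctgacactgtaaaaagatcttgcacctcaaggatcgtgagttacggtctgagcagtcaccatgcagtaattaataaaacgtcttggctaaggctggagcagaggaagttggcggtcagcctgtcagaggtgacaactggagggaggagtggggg
In the Ptgs2 window the short element (as CGTCA on the strand shown, bases 14 to 18 counted from 1 at the gene start) overlaps the E-box (bases 17 to 22), whereas none of the 4 motifs occurs in the Ptgs1 window. Of 32817 windows of this length in the mouse table, 19.9% hold the short element, 1.74% the full element, 6.79% the E-box and 13.1% the TATA box. The GC content is 61.4% in the Ptgs2 window and 49.6% in the Ptgs1 window. These matches describe the letters only.

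Library totals ran from 30371291 to 37243882 counts and every pair of libraries differed by more than sampling noise (chi-square per gene of at least 5.92). Levels are given as CPM (counts scaled to a common library size, with TMM factors). Of 16097 genes tested, 47.9% were called (edgeR quasi-likelihood fit, with p adjusted by Benjamini-Hochberg and called under 0.05), 24.6% higher and 23.3% lower with EET, and the fold changes follow mRNA length (Spearman rho −0.68 across 13924 protein-coding genes, which are not independent replicates). The 8 muscle stem cell markers, among them Pax7, Myf5 and Myod1, were all present and summed to 3390 to 3690 CPM in controls and 3890 to 3980 CPM with EET. Of these 8, 4 were called higher and 1 lower. The lower one was Pax7, from 114 to 83.5 CPM (log2 fold change −0.45, adjusted p = 6.34e-05; −0.05 and not called with the trend removed, adjusted p = 0.519). Myf5 and Myod1 were called higher as counted (0.26 and 0.25) but were at −0.04 and −0.14 with the trend removed, where Myod1 was called lower (adjusted p = 0.0214). Des was called higher in both fits. It went from 594 ± 56.5 to 864 ± 82.5 CPM (0.54 as counted, and 0.52 with the trend removed, adjusted p = 0.000126). Sdc4 was called higher as counted only (0.19, and 0.05 with the trend removed). Markers of other cell types were present too. The 8 endothelial markers summed to 232 to 238 CPM in controls and 151 to 163 CPM with EET, the 6 pericyte markers to 165 to 189 and 112 to 120 CPM, and the 8 fibro-adipogenic markers to 769 to 817 and 650 to 707 CPM. The 8 macrophage markers summed to 315 to 344 CPM in controls, and with EET to 386 CPM in replicate 1 but 214 and 204 CPM in replicates 2 and 3. Most of each macrophage sum was 1 gene, Lyz2 (206, 212 and 230 CPM in controls, 283, 145 and 128 CPM with EET). As counted, 2 of these 8 were called lower (Ptprc and Csf1r) and 0 higher. No marker was at 0 in all libraries. These sums are as counted, so they carry the length trend too. With it removed, Pdgfra and Col1a1 were not called (−0.05 and −0.07, from −0.58 and −0.42 as counted). Col3a1 went from −0.21 and called lower to 0.17 and called higher, whereas Dcn and Ly6a became called lower (−0.39 and −0.52). Pecam1, Cdh5, Cspg4 and Pdgfrb stayed lower (−0.54, −0.80, −0.30 and −0.28), and Vwf, Notch3 and Abcc9 lost their call. In bulk RNA, fewer cells of a type and less RNA per cell cannot be told apart.

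The 10 genes spanned more than 3 orders of magnitude. Per kilobase of mRNA (CPM divided by the length of the longest protein-coding transcript), Ptges3 had 165 ± 2.69 in controls (mean ± SD, n = 3 in this and every group) and Ptgs2 41.3 ± 1.32. Ptges followed at 10.8 ± 0.481, then Ptgis at 6.25 ± 0.935, Ptger4 at 5.35 ± 0.746, Ptgs1 at 5.31 ± 0.0586 and Ptges2 at 4.57 ± 0.366. The control levels of Ptger4 overlapped those of Ptgis, of Ptgs1 and of Ptges2, so its place among them was not firm, whereas Ptgis lay above Ptgs1 and Ptgs1 above Ptges2 in every control library. Hpgd (0.164 ± 0.149), Ptger2 (0.101 ± 0.00717) and Ptger1 (0.0477 ± 0.0137) were near the limit of detection. The place of Ptges2 depends on the gene model: its GENCODE mRNA of 4978 bp runs 3032 bp past the RefSeq gene, and with the remaining 1946 bp its control level is 11.7 ± 0.936 per kilobase, beside Ptges. With EET the levels were 220 ± 12.3 for Ptges3, 35.8 ± 2.9 for Ptgs2, 11.5 ± 0.277 for Ptges and 9.21 ± 0.914 for Ptgis. Ptges2 was then at 6.75 ± 0.44 with the GENCODE mRNA, below Ptgis, or at 17.3 ± 1.13 with the 1946 bp, above Ptges.

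**Figure D1:**
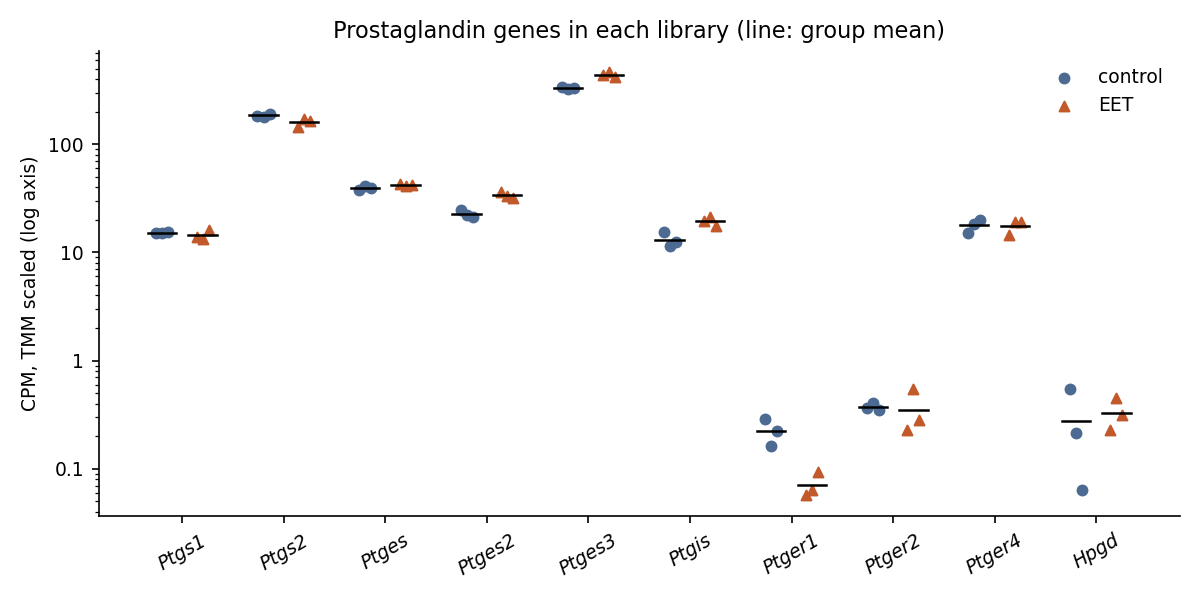
CPM of each gene (log axis) in the 3 control libraries (circles) and the 3 EET libraries (triangles), with a line at each group mean. Ptges, Ptges2, Ptges3 and Ptgis lie wholly higher and Ptgs2 and Ptger1 wholly lower in the EET libraries. Of these Ptges was not called and Ptger1 did not pass the filter. Ptger1, Ptger2 and Hpgd stay under 1 CPM in every library.

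Of the 10 genes 9 passed the filter on low counts, and Ptger1 did not. As counted, Ptges2, Ptges3 and Ptgis rose and Ptgs2 fell, and the other 5 tested genes were not called. These 3 higher and 1 lower calls among 9 tested stand beside 24.6% higher and 23.3% lower over all genes tested. The groups did not overlap for 5 of the 9 (the 4 called genes and Ptges), beside 57.7% of all genes, of which 29.6% had every EET library above and 28.0% every EET library below the controls. Their median log2 fold change was 0.09 and that of all genes tested 0.005. With 9 genes, these counts are near the background of the whole table.

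Ptgs2 (GRCm38 chr1:150100031-150108227, plus strand), the inducible cyclooxygenase, was the more abundant of both isoenzymes and fell slightly. Its control libraries had 181, 180 and 191 CPM and its EET libraries 145, 170 and 163 CPM. All EET libraries were below all controls, with EET replicate 1 the lowest, and the log2 fold change was −0.21 ± 0.07 (± SE, edgeR adjusted p = 0.0277), or 13.3% less (−13.3% as fitted). The call was lost on leaving out control replicate 2 (log2 fold change −0.22, adjusted p = 0.0619) or control replicate 3 (−0.18, adjusted p = 0.12), with a fold change close to that of all libraries. It was also lost on leaving out EET replicate 1, where the fold change was smaller (−0.14, adjusted p = 0.14). EET replicate 1 is also the library with the highest macrophage marker sum, of which Lyz2 gave 283 of 386 CPM. The macrophage markers did not go 1 way in this library. Lyz2, Cd68 and Cd14 were above every control, Ptprc, Adgre1, Csf1r and Mrc1 were below every control, and Itgam lay among the controls. The part of macrophage RNA in the result was not tested. Genes with mRNAs within a factor of 1.1 of the 4453 bp of Ptgs2 had a median log2 fold change of −0.24, and 43.9% of them were called lower. With each library's trend over mRNA length and GC content removed, Ptgs2 was at −0.02 ± 0.05 (adjusted p = 0.794).

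Ptgs1 (chr2:36230426-36252272, plus strand), the constitutive cyclooxygenase, showed no detectable difference. It had 15.2, 15.1 and 15.4 CPM in controls and 13.8, 13.3 and 16.1 CPM with EET. The EET libraries lay on both sides of the tightly grouped controls (log2 fold change −0.08 ± 0.11, adjusted p = 0.564). Per kilobase and within each library, Ptgs2 counts were 7.7, 7.67 and 7.97 times those of Ptgs1 in controls and 6.79, 8.24 and 6.53 times with EET. This ratio needs no library scaling, and its groups overlapped (exact two-sided permutation p = 0.4, or 0.48 adjusted over 6 ratios). With 3 against 3 libraries that test cannot give a p below 0.1. An antisense gene, Gm43621, shares 148 bp of exon with Ptgs1 and held between 0 and 10 counts per library.

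The 3 genes named as prostaglandin E synthases did not move alike as counted. Ptges (chr2:30889471-30929863, minus strand), the inducible microsomal enzyme that works with Ptgs2, had 37.5, 41.0 and 39.6 CPM in controls and 43.2, 41.4 and 41.5 CPM with EET. All EET libraries were above all controls, but by a margin that the test did not call (log2 fold change 0.09 ± 0.08, adjusted p = 0.364). With the trend removed its value was 0.20 ± 0.07 and called higher (adjusted p = 0.0263). The 1711 genes of about its length had a median of −0.11.

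Ptges2 (chr2:32395896-32405772, plus strand), a membrane-associated synthase, rose. Controls had 24.8, 22.3 and 21.2 CPM and EET libraries 36, 33.1 and 31.7 CPM. Every EET library was above every control, and the log2 fold change was 0.56 ± 0.09 (47.5% more, adjusted p = 0.00017). It was called higher under all 16 alternatives run, with adjusted p between 1.75e-07 and 0.0309. How far it exceeded mRNAs of similar size depends on the transcript used. With the 4978 bp GENCODE mRNA, whose length class had a median of −0.31, the trend-removed value was 0.86 ± 0.09 (adjusted p = 9.11e-07). With the 1946 bp inside the RefSeq gene, whose length class had a median of 0.285 (1294 genes, of which 47.7% were called higher), it was 0.21 ± 0.07 (adjusted p = 0.0309). Which 3′ end these cells use cannot be read from counts per gene.

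Ptges3 (chr10:128058954-128077272, plus strand), the cytosolic synthase that is also the HSP90 co-chaperone p23, rose from 337, 326 and 329 CPM to 436, 465 and 416 CPM. The groups did not overlap (log2 fold change 0.41 ± 0.07, 32.8% more, adjusted p = 0.00012). Genes near its mRNA length of 2000 bp had a median of 0.29 and 47.2% of them were called higher, and with the trend removed Ptges3 was no longer called (0.10 ± 0.04, adjusted p = 0.0783). The pseudogene Ptges3-ps held 1314 to 1663 counts per library, 42.1 ± 0.271 CPM in controls and 48.3 ± 4.88 CPM with EET (log2 fold change 0.20, adjusted p = 0.0708; with the trend removed 0.20 and called higher, adjusted p = 0.0401). Reads of this near copy and of Ptges3 may be mixed, so the level of Ptges3 is uncertain.

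Ptgis (chr2:167191805-167240604, minus strand), which diverts prostaglandin H2 to prostacyclin, rose. It had 15.3, 11.5 and 12.6 CPM in controls and 19.5, 21.3 and 17.4 CPM with EET. Every EET library was above every control, with control replicate 1 the highest control (log2 fold change 0.56 ± 0.12, 47.4% more, adjusted p = 0.00153). Genes near its mRNA length had a median of 0.27, and 44.1% of them were called higher. With the trend removed Ptgis was at 0.28 ± 0.10 (adjusted p = 0.0386). With mRNAs trimmed to the RefSeq gene bounds, which leaves 1820 of its 2107 bp, Ptgis was at 0.19 ± 0.10 and not called (adjusted p = 0.153). Prostacyclin synthase is known from endothelial and smooth muscle cells, and the summed endothelial and pericyte markers were lower in the EET libraries (151 to 163 CPM against 232 to 238, and 112 to 120 against 165 to 189). As counted, of the 8 endothelial markers 6 fell and 1 rose, and of the 6 pericyte markers 4 fell and 1 rose. Their part in the value of Ptgis was not tested.

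Ratios between these enzymes within each library are free of library scaling but not of the length trend. They use the same counts as the calls above, so they add no separate support to them. Relative to Ptges per kilobase, Ptges2 went from 0.484, 0.398 and 0.393 in controls to 0.611, 0.586 and 0.56 with EET, a 1.38-fold change. These levels use the 4978 bp GENCODE mRNA of Ptges2. With the 1946 bp inside the RefSeq gene, Ptges2 is above Ptges (11.7 against 10.8 per kilobase in controls, 17.3 against 11.5 with EET). The 1.38-fold change does not depend on this length, but how it stands beside the length trend does. The length class of Ptges2 had a median of −0.31 at 4978 bp or 0.285 at 1946 bp, and that of Ptges −0.11. With the trend removed Ptges2 and Ptges were at 0.86 and 0.20, or at 0.21 and 0.23 with trimmed mRNAs. Ptgis relative to Ptgs2 went from 0.179, 0.135 and 0.14 to 0.284, 0.264 and 0.226, a 1.71-fold change. Ptges3 and Ptgis relative to Ptges changed 1.24-fold and 1.39-fold. The length classes of Ptges3 and Ptgis had median log2 fold changes of 0.29 and 0.27, those of Ptges and Ptgs2 −0.11 and −0.24. With the trend removed Ptges3 was below Ptges (0.10 against 0.20), so the shift of that ratio was not kept. Ptgis was at 0.28 against 0.20 for Ptges, but at 0.19 against 0.23 with trimmed mRNAs. All 4 ratios were separated between the groups and had the exact permutation p of 0.1, the smallest that 3 against 3 allows, or 0.15 adjusted over 6 ratios.

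**Figure D2:**
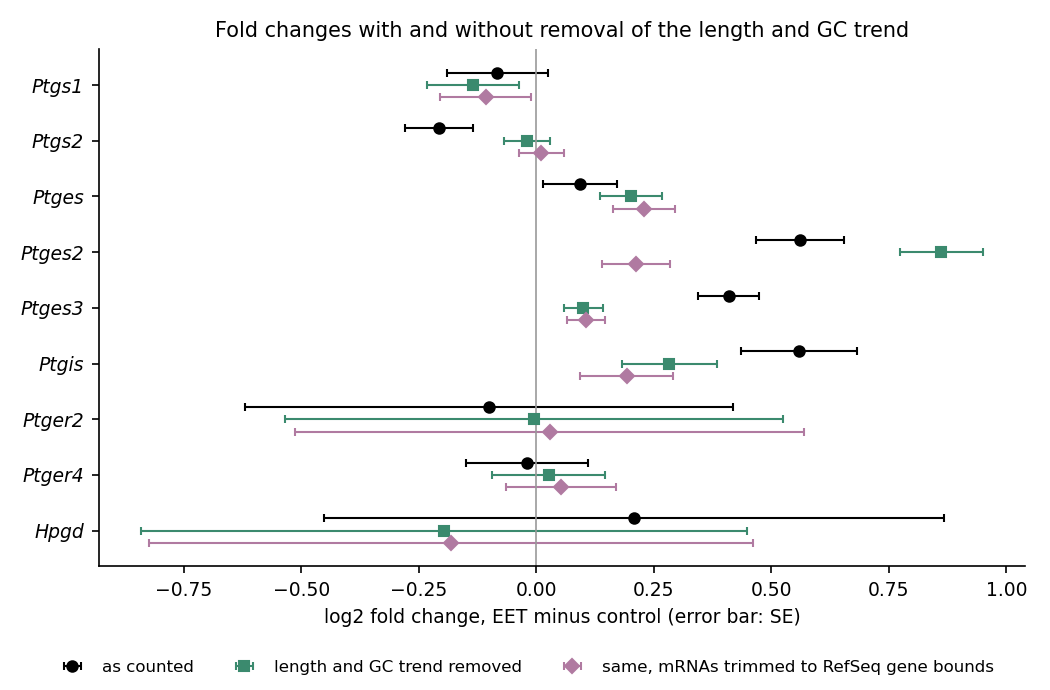
Log2 fold change (EET minus control, error bars SE) of the 9 tested genes as counted (circles), with the length and GC trend removed (squares) and the same with mRNAs trimmed to the RefSeq gene bounds (diamonds). Ptgs2 and Ptges3 move close to 0 once the trend is removed, and Ptges2 goes from 0.56 to 0.86 or to 0.21 depending on its mRNA length.

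Among the 3 PGE2 receptor genes followed, only Ptger4 (chr15:5206661-5244187, minus strand), the gene of the cAMP-raising receptor EP4, had more than 1 CPM. Its controls had 15.0, 18.3 and 19.9 CPM and its EET libraries 14.5, 19.1 and 18.9 CPM. The groups overlapped almost fully, with replicate 1 the lowest in both, and no difference was detected (log2 fold change −0.02 ± 0.13, adjusted p = 0.919). The sign of this small value turned under 5 of 16 alternatives, between −0.13 and 0.10. Exons of Ttc33 on the other strand overlap those of Ptger4 by 82 bp. The pseudogene Gm15937, also on the other strand, overlaps them by 1015 bp and had 0 counts in every library. The sources used here do not say whether counting used strand.

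Ptger2 (chr14:44988195-45003820, plus strand), the other cAMP-raising receptor (EP2), was at 0.368, 0.402 and 0.350 CPM in controls and 0.228, 0.544 and 0.280 CPM with EET, which is 8 to 17 counts per library. The EET libraries lay on both sides of the controls, and at this depth a difference was not detectable (log2 fold change −0.10 ± 0.52, adjusted p = 0.894). Within each library Ptger4 counts per kilobase were 39 to 75.1 times those of Ptger2. Ptger1 (chr8:83666678-83672753, plus strand), the gene of the calcium-coupled receptor EP1, had 11, 6 and 7 counts in controls and 2, 2 and 3 with EET. Its groups did not overlap, but it did not pass the filter, and without the filter it was not called (log2 fold change −1.61 ± 1.06, edgeR adjusted p = 0.327). The assignment of so few counts to Ptger1 is uncertain.

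Hpgd (chr8:56294585-56321043, plus strand), the enzyme that degrades PGE2, was barely detected. It had 21, 8 and 2 counts in controls and 8, 14 and 10 with EET, or 0.552, 0.214 and 0.0636 CPM against 0.228, 0.448 and 0.311 CPM. The control libraries spanned the whole EET range, with control replicate 1 the highest and control replicate 3 the lowest of all 6. A change in Hpgd was not detectable at this depth (log2 fold change 0.21 ± 0.66, adjusted p = 0.825).

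**Figure D3:**
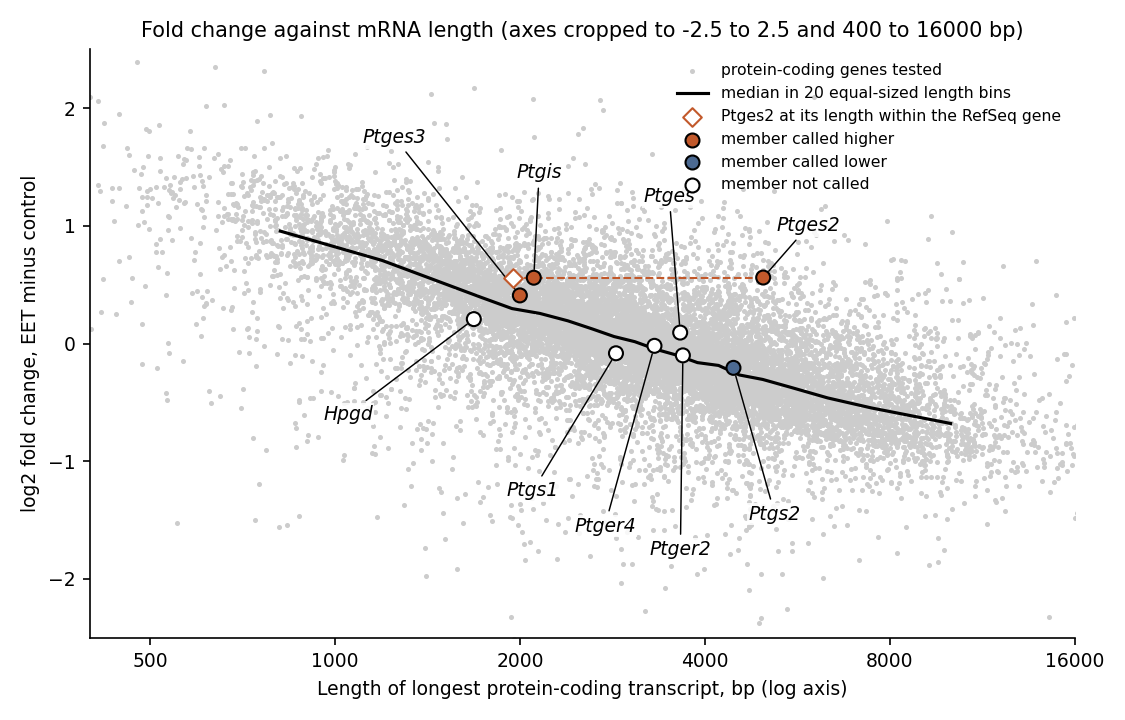
Log2 fold change of 13924 protein-coding genes (grey points, axes cropped as stated) against mRNA length (log axis), with the median in length bins (line) and the 9 tested prostaglandin genes (circles, coloured by call). Ptgs2, Ptger4 and Ptger2 lie near the line, Ptgs1 and Hpgd below it, Ptges, Ptgis and Ptges3 above it, and Ptges2 far above it at 4978 bp but nearer to it at the 1946 bp inside the RefSeq gene (diamond).

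Each call was read beside the length trend of the whole table. With the trend removed, 31.4% of all genes were called, 16.2% higher and 15.2% lower. Of the prostaglandin genes, Ptges, Ptges2 and Ptgis were then higher and none lower (0 lower also at an unadjusted p under 0.05). With mRNAs trimmed to the RefSeq bounds, 16.0% of all genes were higher and 14.4% lower, and of the prostaglandin genes Ptges (0.23 ± 0.07, adjusted p = 0.0107) and Ptges2 were higher and none lower (again 0 at an unadjusted p under 0.05). Ptges2 alone was called higher in these 3 fits together. DESeq2 and limma-voom, run as counted, called the same numbers as edgeR, 3 higher and 1 lower each.

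The other genes around this pathway were taken from 5 lists, whose counts stand beside 24.6% higher and 23.3% lower over all genes tested as counted, and 16.2% and 15.2% with the trend removed. Of 20 genes that release arachidonic acid or handle related lipids, 14 were tested, 2 rose and 1 fell, and the median log2 fold change was −0.08, beside 0.005 over all genes tested. Pla2g4a, the cytosolic phospholipase A2 that frees arachidonic acid for both cyclooxygenases and epoxygenases, fell from 28.7, 30.5 and 27.7 CPM to 22.2, 22.5 and 24.5 CPM (log2 fold change −0.33 ± 0.09, adjusted p = 0.00682). The groups did not overlap, and it was also called lower with the trend removed (−0.42, adjusted p = 0.000395). Pla2g12a, a secreted phospholipase gene, rose from 14.5 ± 0.803 to 23.2 ± 2.87 CPM (0.68 ± 0.11, adjusted p = 0.000119; 0.19 and not called with the trend removed, adjusted p = 0.0981). Plaat3, a phospholipase and acyltransferase of adipose tissue, rose by 0.48 ± 0.12 on the log2 scale (adjusted p = 0.00511) and by 0.55 with the trend removed. Pnpla2, the triglyceride lipase, was at 48.1 ± 2.08 and 53.9 ± 3.31 CPM (adjusted p = 0.104). It was called higher with the replicate number as a block (0.16, adjusted p = 0.0491), and also on leaving out EET replicate 3 (0.21, adjusted p = 0.0319).

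Of 13 genes of other prostanoid synthesis, transport and breakdown, all tested, 6 rose and 3 fell, with a median of 0.19, beside 24.6% higher and 23.3% lower over all genes. With the trend removed 1 was higher and 2 were lower, beside 16.2% and 15.2%. Slco2a1, the prostaglandin uptake transporter, fell from 45.6, 44.6 and 44.5 CPM to 26.7, 27.4 and 31.1 CPM (log2 fold change −0.66 ± 0.09, adjusted p = 2.11e-05). Abcc4, an exporter of prostaglandins and cyclic nucleotides, fell from 65.0, 73.7 and 71.4 CPM to 46.4, 45.8 and 52.7 CPM (−0.54 ± 0.08, adjusted p = 9.4e-05). For both transporters all EET libraries were below all controls, but the mRNAs are long (7122 and 5715 bp), and with the trend removed neither was called (−0.11 for each, adjusted p = 0.256 and 0.133). Slco2a1 is also known from endothelial cells, whose summed markers were lower with EET as given above; their part in this was not tested. Ptgr1, which reduces the products of Hpgd, rose from 105, 91.7 and 88.7 CPM to 140, 151 and 129 CPM (0.56 ± 0.08, adjusted p = 5.93e-05), and was called with the trend removed (0.37). Akr1b3, an aldose reductase that can make prostaglandin F2α, rose from 367 ± 27.4 to 504 ± 30.7 CPM (0.46 ± 0.07, adjusted p = 0.000117), a direction that turned with the trend removed (−0.12, adjusted p = 0.0256).

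None of the 6 other prostanoid receptor genes was called. Of these 4 were tested (0 called by edgeR, by DESeq2 and by limma-voom, and 0 at an unadjusted p under 0.05). Ptgir, the prostacyclin receptor, was the most abundant, at 18, 16.9 and 20.6 CPM in controls and 17.3, 16.3 and 16.9 CPM with EET (log2 fold change −0.14 ± 0.10, adjusted p = 0.311). Its groups overlapped, so as counted the prostacyclin branch held a synthase that rose and a receptor with no detected change. With the trend removed and mRNAs trimmed to the RefSeq bounds, that synthase, Ptgis, was not called (0.19, edgeR adjusted p = 0.153). Ptgfr, the prostaglandin F receptor, was at 1.5 ± 0.304 and 1.29 ± 0.201 CPM (adjusted p = 0.558), and Ptger3 (EP3) and Tbxa2r, the thromboxane receptor, stayed under 1 CPM in every library (adjusted p = 0.654 and 0.623). Ptgdr2, a prostaglandin D2 receptor, had 12, 10 and 6 counts in controls and 1, 0 and 2 with EET and did not pass the filter. Without the filter it was called lower (−2.95 ± 1.17, adjusted p = 0.0483). Ptgdr had 4 counts in 1 EET library and 0 in the other 5 libraries.

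In the list of leukotriene and lipoxygenase genes, 0 of 10 tested genes were called by edgeR, DESeq2 or limma-voom, and 0 had an unadjusted p under 0.05 (median −0.03). Lta4h, which makes leukotriene B4, was by far the highest of those named, at 104 ± 5.65 and 112 ± 2.91 CPM (adjusted p = 0.252; −0.18 and called lower with the trend removed, adjusted p = 0.00794). Aloxe3 and Alox15, lipoxygenase genes, and Ltb4r2, a leukotriene receptor, were at 2.42 ± 0.865, 0.461 ± 0.214 and 0.391 ± 0.0789 CPM in controls and 1.73 ± 0.278, 0.204 ± 0.201 and 0.196 ± 0.0716 CPM with EET (adjusted p = 0.176, 0.179 and 0.157). Alox15 was called without EET replicate 3 (−2.30, adjusted p = 0.0248), and Ltb4r2 with the trend removed (−1.61, adjusted p = 0.044).

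The cAMP pathway that EP2 and EP4 feed was followed through 22 genes, all tested. As counted 13 fell and 2 rose, with a median of −0.34, beside 23.3% lower and 24.6% higher over all genes. Many of these mRNAs are long, and of all genes of 4048 to 4898 bp 43.9% were called lower. With the trend removed 7 were lower and 2 higher, with a median of −0.16, beside 15.2% and 16.2% over all genes. The 2 higher were Crem (0.48, adjusted p = 0.0103) and Prkar1a (0.16, adjusted p = 0.00717). As counted Crem was also called higher (0.55, adjusted p = 0.00558) and Prkar1a was not called (0.09, adjusted p = 0.253). Prkacb, a catalytic subunit of protein kinase A, fell from 101, 104 and 101 CPM to 74.3, 67.9 and 81.1 CPM (log2 fold change −0.46 ± 0.08, adjusted p = 0.000168). Prkar2a, a regulatory subunit, fell from 145, 158 and 172 CPM to 104, 108 and 126 CPM (−0.49 ± 0.09, adjusted p = 0.000226). Crtc3, a coactivator of CREB, fell from 40.4, 39.4 and 37.4 CPM to 24.6, 26.2 and 30.4 CPM (−0.53 ± 0.09, adjusted p = 0.000279). For each of these 3 genes all EET libraries were below all controls, and each was also called lower with the trend removed (−0.24, −0.17 and −0.22). Areg, which encodes the growth factor amphiregulin, rose from 4.46 ± 0.512 to 8.37 ± 1.09 CPM (0.91 ± 0.16, adjusted p = 0.000258), or by 0.23 and not called with the trend removed (adjusted p = 0.254).

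**Figure D4:**
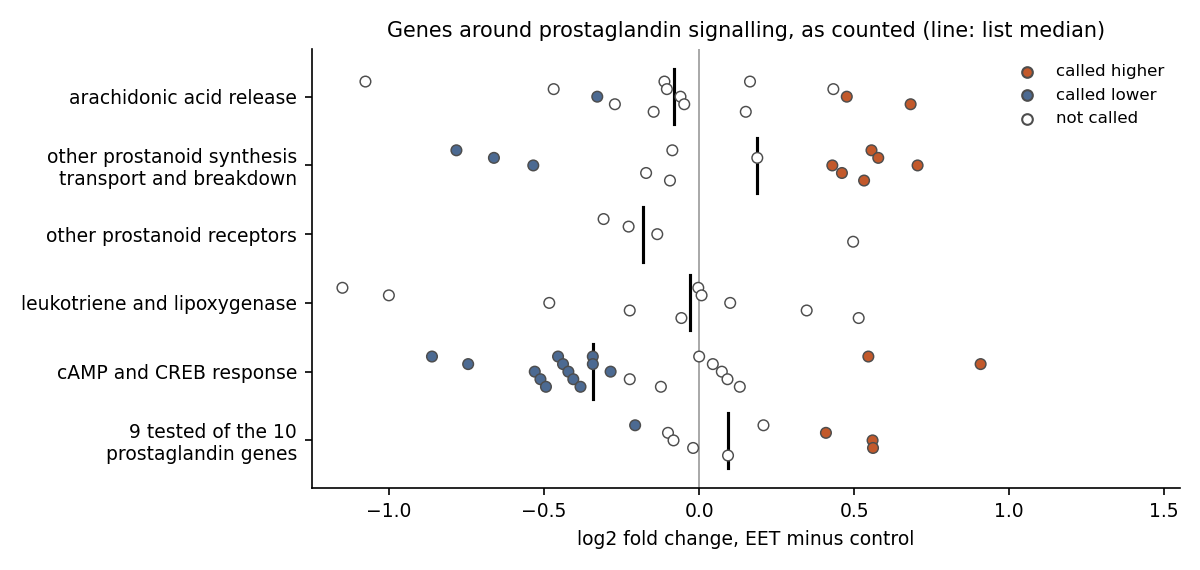
Log2 fold change (EET minus control, as counted) of each tested gene of the 5 lists and of the 9 tested prostaglandin genes, coloured by call, with a line at each median. The cAMP list has 13 genes called lower and its median at −0.34, and the receptor and leukotriene lists have no called gene.

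The genes most similar to Ptgs2 over the 6 libraries, by the mean absolute difference of log2 CPM centred on each gene's mean, were Gstcd, Dbt and Ncapg (0.0144, 0.017 and 0.0173, among 11368 genes of at least 2 CPM). Their log2 fold changes were −0.19 (not called), −0.24 and −0.22 (both called lower), and their mRNAs 3503, 3301 and 3703 bp. For Ptger4 they were Arsk, Zdhhc15 and Myb (0.0369, 0.0485 and 0.0516), all 3 of them not called and, like Ptger4, with control replicate 1 the lowest control. The measure says only that the 6 values run alike.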

How the data were processed

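Poly(A) RNA was sequenced in 6 libraries, 3 per group, and the deposited table holds the authors' whole-number counts per gene symbol, not normalized. Per the submitters' processing notes, tools included FastQC, cutadapt and DESeq2, with build GRCm38. The aligner, counter, strand setting and annotation: not given in the sources used here. Low counts (11 to 50) were even in 61.7 ± 0.388% of cases in controls and 65.3 ± 0.331% with EET, so both mates may be counted for many fragments, and precision is lower than the totals imply.

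Counts were fitted over all genes with edgeR 4.0.16 in R 4.3.3 (filterByExpr, TMM, robust glmQLFit, glmQLFTest, no block), with p adjusted over all tested genes (Benjamini-Hochberg) and calls made under 0.05. Errors of fold changes are standard errors of that fit. Longest protein-coding transcripts of GENCODE M21 (GRCm38) gave mRNA length and GC content, and 376 symbols were matched through older names. To remove the trend, a robust loess (span 0.3) on both was fitted to how each library departed from the 6-library mean and became an edgeR offset. On counts simulated for the 6 libraries (16097 genes), 67 genes were set to 1.5-fold, 67 to 2-fold and 66 to 4-fold, and the rest were unchanged. Of these edgeR recovered 50.7%, 77.6% and 93.9%, and 6 of 154 calls were false. The simulation had few changed genes and no length trend, unlike the real counts, so these shares do not carry over to them. All 10 genes are named. Of each other list the 4 tested genes with the smallest p are named, and every receptor with a count. The 3 genes most like Ptgs2 and Ptger4 are named too. Crem and Prkar1a were added as the cAMP genes called higher with the trend removed. Genes and lists were chosen with earlier results of these data known. Other settings were library totals or RLE in place of TMM, no filter, a minimum of 5 CPM in 3 libraries, limma-voom (limma 3.58.1), DESeq2 1.42.0, a replicate block, counts divided by 2 and leaving out each library. Trimming mRNAs to RefSeq gene bounds was added after the data were seen. A withheld item is not reported here.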

Additional observations from a re-analysis of the deposited data

How the results depend on the processing

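Over all genes, 3967 were higher and 3749 lower. Removing the length and GC trend gave 2608 and 2447, and 2576 and 2313 with trimmed mRNAs; of the 10 genes, the number called lower went from 1 to 0 in both fits. Leaving out 1 library gave 3291 to 4121 genes higher and 3029 to 3934 lower, and of the 10 genes 3 higher each time and 0 to 1 lower (0 without control replicate 2, control replicate 3 or EET replicate 1, when Ptgs2 lost its call). Among the 10 genes and the list genes named by smallest p or as receptors, some signs turned with the trend removed. These were Ptger4 (0.0263, or 0.0535 trimmed), Hpgd (−0.20, or −0.18), Akr1b3 (−0.12, or −0.09), Lta4h (−0.18, or −0.14) and Ptgfr (0.17). With trimmed mRNAs the sign also turned for Ptgs2 (0.0104) and Ptger2 (0.0282). Leaving out 1 library moved Ptger4 between −0.13 and 0.10, Ptger2 between −0.55 and 0.14 and Hpgd between −0.23 and 1.18. Of the lists, prostanoid synthesis, transport and breakdown went from 6 genes higher and 3 lower to 1 and 2 with the trend removed and to 1 and 1 with trimmed mRNAs, cAMP genes from 13 lower to 7 and 6, and leukotriene genes from 0 lower to 2 and 1. Without the filter 1 receptor (Ptgdr2) and 1 leukotriene gene were called lower; without EET replicate 1, 2 genes of arachidonic acid release were lower instead of 1, and without EET replicate 3, 1 leukotriene gene (Alox15). The cause of these changes was not tested. The replicate block called 4238 genes higher and 4083 lower, beside 3967 and 3749 without it, and changed no call of the 10 genes. Same-numbered libraries did not deviate together over all genes (correlations 0.00, −0.05 and 0.01). With 3 libraries per group these correlations cannot decide whether the numbers pair the libraries. For Ptger1, Ptger2 and Hpgd, with 2 to 21 counts per library, depth is the limit.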
